A study of Arabidopsis thaliana with 9 samples.

Results

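Transcripts of 10 genes that are known for fast and short-lived induction by wounding, touch, cold and attack by microbes were followed in inflorescence meristems of Arabidopsis thaliana. They are ERF104, ERF5, ERF6, ERF1A, ZAT10, ZAT12, WRKY33, WRKY40, WRKY53 and CAF1A, 10 of the 25760 genes listed in the count table. They were picked by locus identifier, with no threshold, because several stayed low in the complemented line. Their levels in the 3 genotypes therefore chose them, and are given here as a description. Calls from the fit over all tested genes are named for them, but are no evidence, since the same levels chose the genes. All 10 passed the filter on low counts and were among the 22671 genes tested. Of the 10, 9 encode DNA-binding regulators of transcription and CAF1A encodes an mRNA deadenylase. No wounding or stress treatment was part of the series, and the genes are grouped by what they are known for. The meristems were taken by dissection, and the part of this handling in the levels was not tested.

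Meristems were dissected from plants of 3 genotypes, with 3 libraries each. The genotype col-0 is the wild type. The genotype csld5 is a mutant of CSLD5, a gene for a cellulose synthase-like protein of the cell wall. The genotype pATML1::GFP+CSLD5-csld5, called complemented here, carries a CSLD5 transgene in the mutant, so both csld5 and complemented plants carry the csld5 mutation. The ATML1 promoter that drives the transgene is known for activity in the outermost cell layer. The transgene therefore need not follow the native pattern of the gene, which the labels do not give. The mutant allele, the number of transgenic lines, the age of the plants and whether libraries of the same genotype are from separate plants are not stated by the labels. The p-values below therefore measure only the spread between these libraries, which may be technical.

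ERF proteins of group IX bind the GCC box, and in leaves they drive defence genes downstream of ethylene and of the stress-activated kinases MPK3 and MPK6. WRKY proteins bind the W box, which is found in many defence genes and in promoters of WRKY genes themselves. ZAT10 and ZAT12 are zinc finger proteins of the response to oxidative stress, cold and strong light. Transcripts of this kind are rapidly made after a stimulus and rapidly lost again.

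The 250 bases before the annotated start were read for all 10 genes from the TAIR10.1 assembly with the RefSeq annotation. Within these 250 bases, the 4 printed here show the GCC box and W box together, W boxes alone, a GCC box alone and no searched motif. Each is written 5′ to 3′ on the strand of the gene. Capitals mark the GCC box (GCCGCC) or the W box (TTGACC or TTGACT), read on either strand, and the sites do not overlap each other. The WRKY33 stretch is chr2:16107985-16108234 (plus strand), that of WRKY53 is chr4:12393983-12394232 (minus strand), that of ZAT10 is chr1:9649324-9649573 (minus strand) and that of ERF104 is chr5:24767733-24767982 (minus strand).
WRKY33: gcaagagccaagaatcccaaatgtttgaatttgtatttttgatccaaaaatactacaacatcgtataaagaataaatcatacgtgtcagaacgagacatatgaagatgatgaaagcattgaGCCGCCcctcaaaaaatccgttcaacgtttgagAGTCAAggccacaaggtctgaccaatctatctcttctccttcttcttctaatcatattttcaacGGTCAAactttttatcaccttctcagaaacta
WRKY53: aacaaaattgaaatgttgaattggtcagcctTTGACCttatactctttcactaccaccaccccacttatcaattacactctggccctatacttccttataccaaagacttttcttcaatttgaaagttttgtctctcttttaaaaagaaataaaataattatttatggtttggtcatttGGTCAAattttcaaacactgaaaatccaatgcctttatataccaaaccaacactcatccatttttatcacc
ZAT10: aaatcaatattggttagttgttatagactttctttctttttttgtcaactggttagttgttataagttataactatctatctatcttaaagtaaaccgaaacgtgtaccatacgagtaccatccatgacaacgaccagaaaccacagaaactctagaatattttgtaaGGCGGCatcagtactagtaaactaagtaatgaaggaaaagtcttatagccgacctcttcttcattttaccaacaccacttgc
ERF104: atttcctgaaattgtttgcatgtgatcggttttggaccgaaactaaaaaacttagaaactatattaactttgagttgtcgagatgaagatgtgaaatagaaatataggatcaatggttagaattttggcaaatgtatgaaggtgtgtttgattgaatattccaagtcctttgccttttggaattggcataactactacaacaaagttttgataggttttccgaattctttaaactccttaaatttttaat

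With the first base of the gene as 1 and the base before it as -1, the GCC box of WRKY33 began at -129 and its W boxes at -96 and -32. The W boxes of WRKY53 began at -219 and -71, and the GCC box of ZAT10 at -82. ZAT10 also had a G box at 10 and a W box at 21, after the start and outside the printed stretch. In windows from 250 bases before to 50 bases after the start, the GCC box was found in 2 of the 10 genes and in 2.51% of 23398 protein-coding genes. The W box was found in 4 of the 10 and in 32.1% of all. The G box (CACGTG) was found in 2 of the 10, ERF1A and ZAT10, and in 8.36% of all, and the rapid stress response element CGCGTT in 0 of the 10 and in 3.58% of all. A match gives letters in a window and not a bound site.

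Total counts ran from 35543318 to 45679471 per library. CSLD5 had 126.5 to 135.2 CPM (read counts scaled to library size) in col-0, 26.8 to 28.1 CPM in csld5 and 856 to 1013 CPM in complemented libraries, where reads of the transgene may be included. The listed meristem and floral primordium markers were present in all groups, 10 of 10. Their summed levels were 744 to 779 CPM in col-0, 669 to 772 CPM in csld5 and 722 to 750 CPM in complemented libraries. At an adjusted p below 0.05 in edgeR, 3 of these 10 markers were higher and 3 lower in csld5 than in col-0 (30% each). Of all tested genes, 21.1% were higher and 20.4% lower. Summed vascular markers were higher in csld5 than in col-0 (123 to 147 against 98.2 to 102 CPM, 6 markers). Summed guard cell markers were lower (28.9 to 33.7 against 34.2 to 36.7 CPM, 3 markers). In complemented libraries these sums were at 92.8 to 99 CPM and 36.4 to 38.7 CPM. At the same threshold in csld5 versus col-0, 2 of the 6 vascular markers were higher and 0 lower, and 1 of the 3 guard cell markers was lower and 0 higher. Pollen markers (7) summed to 181 to 285, 279 to 492 and 249 to 292 CPM, and tapetum markers (6) to 151 to 192, 119 to 188 and 191 to 244 CPM in col-0, csld5 and complemented libraries. Of 4 root hair markers 1 was listed, at 3.98 to 5.15, 3.95 to 7.18 and 3.39 to 5.65 CPM. None of the listed markers was at 0 in a genotype, and the part of these cells in the levels of the 10 genes was not tested. Chloroplast transcripts held 0.0210% to 0.0267% of counts in col-0, 0.00734% to 0.00815% of counts in csld5 and 0.0247% to 0.0329% of counts in complemented libraries.

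All 10 genes had their highest mean level in col-0. In csld5 they stood at 23.3% (WRKY53) to 70.0% (ZAT12) of the col-0 mean, and the 3 csld5 libraries lay below the 3 col-0 libraries for every one of the 10. In the complemented line they stood at 14.2% (ERF104) to 69.8% (WRKY53) of the col-0 mean, and 9 of the 10 lay below col-0 in all 3 libraries, WRKY53 being the exception. Against csld5, the complemented libraries were apart for 2 genes, WRKY53 (higher in all 3) and ERF104 (lower in all 3). The other 8 overlapped. Of all tested genes, 25.8% were lower without overlap in csld5 versus col-0, and 10.2% in complemented versus col-0. In complemented versus csld5, 25.9% were higher and 25.7% lower without overlap. Each library is of dissected tissue with many cells, and pollen and tapetum markers were found in all of them. Fewer cells of a type and less RNA per cell therefore cannot be told apart.

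**Figure D1:**
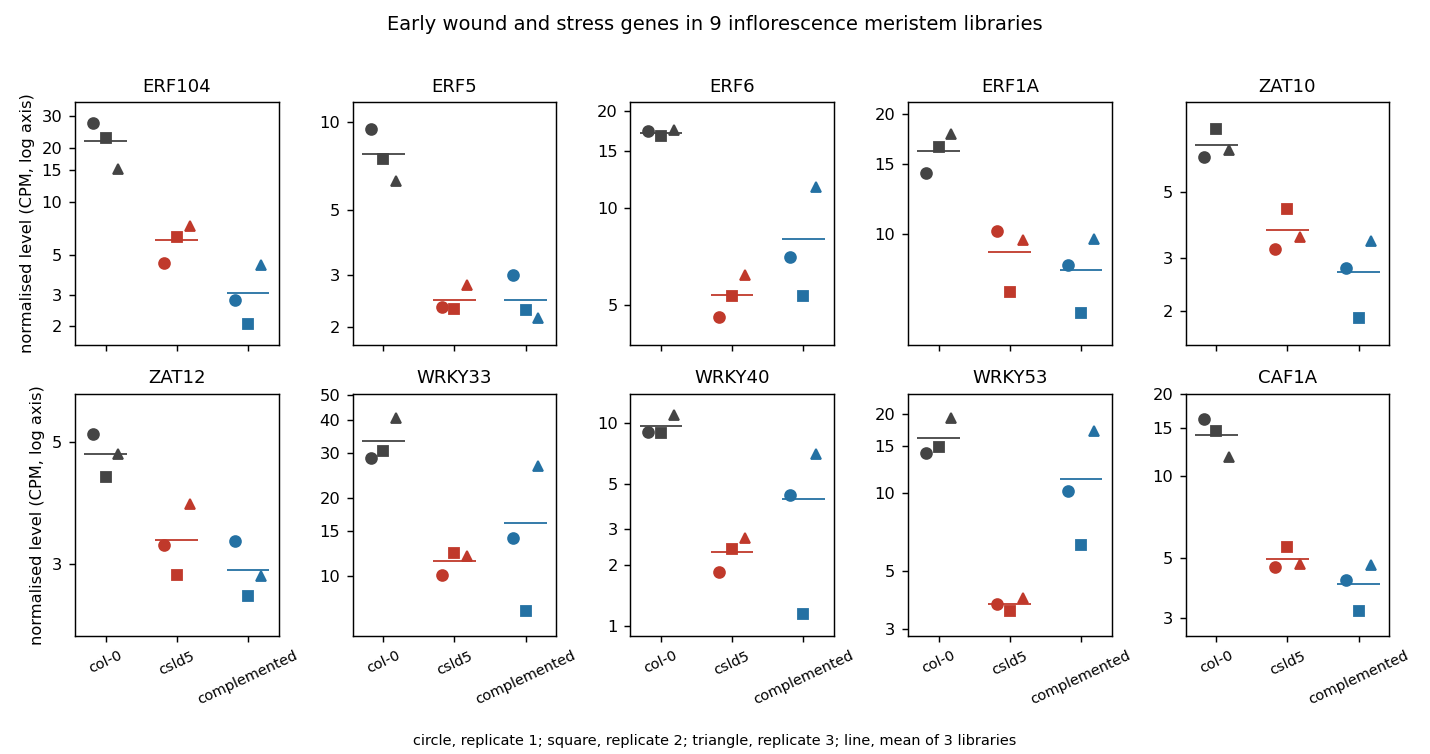
Normalised level (CPM, log axis) of the 10 genes in each of the 9 libraries, with a symbol for each replicate number and a line at the mean of 3 libraries. The col-0 symbols lie above all csld5 symbols in every panel, and the complemented symbols spread most for WRKY40, from 1.145 to 7.059 CPM.

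The median log2 fold change of the 10 was -1.59 in csld5 versus col-0, -0.07 in complemented versus csld5 and -1.13 in complemented versus col-0. Over all tested genes the medians were -0.02, 0.02 and -0.002. With an adjusted p below 0.05 in edgeR (quasi-likelihood F test, Benjamini-Hochberg), 10 of the 10 were lower in csld5 than in col-0, where 20.4% of all tested genes were lower. In complemented versus csld5, 2 were higher (ERF6 and WRKY53) and 1 was lower (ERF104), where 19.8% of all genes were higher and 21.1% lower. In complemented versus col-0, 6 were lower (ERF104, ERF5, ERF6, ERF1A, ZAT10 and CAF1A), where 0.578% of all genes were lower. The levels in these comparisons chose the genes, and the counts are not evidence for them. Over all tested genes, the libraries of the 2 genotypes did not overlap in 25.8% of cases (lower) and 25.2% (higher) for csld5 versus col-0, in 25.7% and 25.9% for complemented versus csld5, and in 10.2% and 9.37% for complemented versus col-0. The comparisons share libraries with each other, so their values are set side by side and were not correlated.

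**Figure D2:**
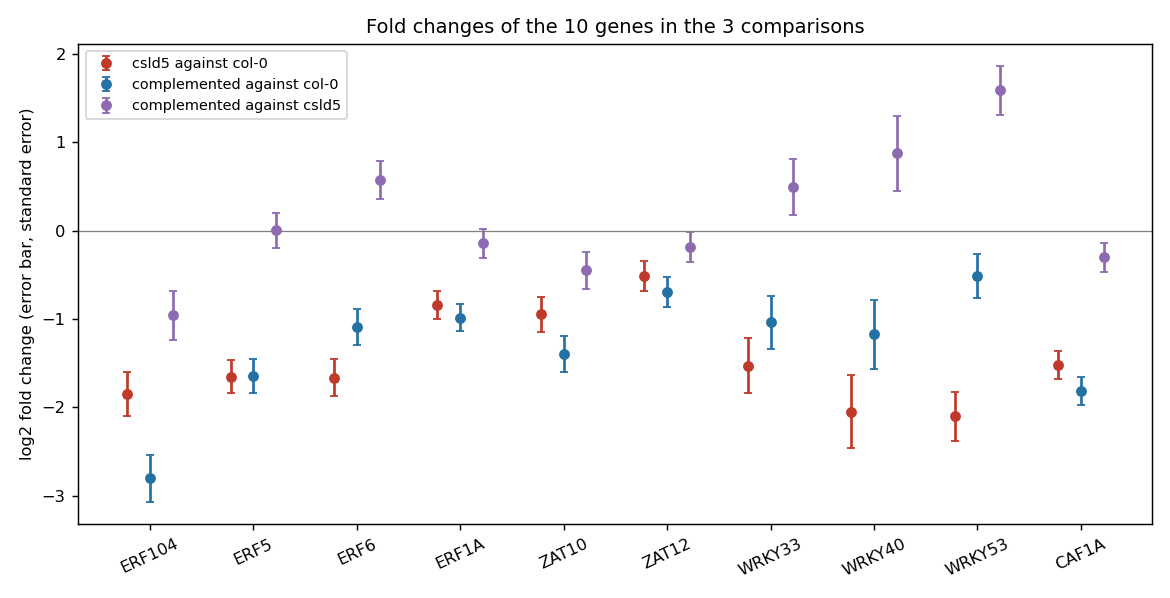
Log2 fold change of each gene in csld5 versus col-0, complemented versus csld5 and complemented versus col-0, with standard errors as bars. The values against col-0 are all below 0, while those against csld5 run from -0.96 for ERF104 to 1.59 for WRKY53.

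Among the ethylene response factors, ERF104 was the lowest in the complemented line relative to the wild type. ERF104 (AT5G61600, chromosome 5, 24766344 to 24767732) is a substrate of MPK6 in the response to bacterial flagellin. It had 27.6, 22.6 and 15.1 CPM in col-0 replicates 1, 2 and 3, then 4.51, 6.37 and 7.28 CPM in csld5, and 2.81, 2.06 and 4.40 CPM in complemented libraries. The 3 genotypes did not overlap, and every complemented library lay below every csld5 library. Its means were 21.8 ± 6.27, 6.05 ± 1.41 and 3.09 ± 1.2 CPM (SD, n = 3). For ERF104 the log2 fold changes were -1.85 ± 0.25 (SE) in csld5 versus col-0, -0.96 ± 0.28 in complemented versus csld5 and -2.81 ± 0.27 in complemented versus col-0. The call in complemented versus csld5 was lost without csld5 replicate 3 (-0.80) or without complemented replicate 2 (-0.75).

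ERF5 and ERF6, close relatives that act in the response to chitin and in the restriction of leaf growth under osmotic stress, differed from each other in the complemented line. ERF5 (AT5G47230, chromosome 5, 19179881 to 19181182) had 9.49, 7.49 and 6.31 CPM in col-0, 2.34, 2.30 and 2.78 CPM in csld5 and 3.01, 2.29 and 2.15 CPM in complemented libraries. The csld5 and complemented libraries of ERF5 overlapped, and both lay below col-0. Its log2 fold changes were -1.65 ± 0.19 in csld5 versus col-0, 0.01 ± 0.20 in complemented versus csld5 and -1.64 ± 0.19 in complemented versus col-0. ERF6 (AT4G17490, chromosome 4, 9752824 to 9754161) had 17.2, 16.7 and 17.4 CPM in col-0, 4.62, 5.36 and 6.20 CPM in csld5 and 7.04, 5.36 and 11.6 CPM in complemented libraries. For ERF6 the complemented replicates 1 and 3 lay above csld5, replicate 2 lay within it, and none reached col-0. ERF6 had log2 fold changes of -1.66 ± 0.21, 0.57 ± 0.22 and -1.09 ± 0.20 in the same order. Its call in complemented versus csld5 was lost in 13 of 20 alternatives and that in complemented versus col-0 in 4, with values of 0.20 to 0.79 and -1.46 to -0.88 over all 20.

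ERF1A (AT4G17500, chromosome 4, 9759203 to 9760391), named ERF-1 in RefSeq, is an activator of genes with a GCC box. It had 14.2 to 17.8 CPM in col-0, 7.15 to 10.2 CPM in csld5 and 6.35 to 9.70 CPM in complemented libraries. Its csld5 and complemented libraries overlapped and both stood at about the same share of col-0, 55.8% and 50.4% of the mean. For ERF1A the log2 fold changes were -0.84 ± 0.16 in csld5 and -0.98 ± 0.16 in complemented plants against col-0, and -0.14 ± 0.16 between them. ERF1A and ERF6 are neighbours on opposite strands, 5041 bases apart.

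The zinc finger genes were the least changed of the regulators in csld5, together with ERF1A. ZAT10 (AT1G27730, chromosome 1, 9648021 to 9649323), a repressor induced by many stresses, had 6.53, 8.07 and 6.87 CPM in col-0, 3.23, 4.39 and 3.53 CPM in csld5 and 2.79, 1.90 and 3.43 CPM in complemented libraries. Both groups lay below col-0, and complemented replicates 1 and 2 lay below all csld5 libraries while replicate 3 lay among them. The log2 fold changes of ZAT10 were -0.94 ± 0.20 in csld5 versus col-0, -0.45 ± 0.21 in complemented versus csld5 and -1.39 ± 0.20 in complemented versus col-0. ZAT12 (AT5G59820, chromosome 5, 24102814 to 24103794), which is needed for the induction of ascorbate peroxidase under oxidative stress, had 4.32 to 5.18 CPM in col-0, 2.87 to 3.86 CPM in csld5 and 2.63 to 3.31 CPM in complemented libraries. The col-0 libraries of ZAT12 lay above the other 6, which overlapped. Its log2 fold changes were -0.52 ± 0.17, -0.18 ± 0.17 and -0.70 ± 0.17 in the same order. The call of ZAT12 in csld5 versus col-0 was lost in 5 of 20 alternatives, and its value moved to -0.29 once GC content and length were corrected for.

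In CPM, WRKY53 and WRKY40 had the lowest shares of the col-0 level among the 10 in csld5, and the 3 WRKY genes had the widest ranges in the complemented line. In TPM this held for WRKY40 in csld5 and for the ranges of WRKY33 and WRKY40. WRKY53 was then at 32.3% of col-0 in csld5, above ERF104, ERF6 and ERF5, and its complemented range of 1.96-fold lay below the 2.14-fold of ERF6 and of ERF104. WRKY33 (AT2G38470, chromosome 2, 16108235 to 16110766) encodes the regulator of camalexin synthesis and of resistance to necrotrophic fungi. It had 28.5, 30.4 and 40.7 CPM in col-0, 10.2, 12.3 and 12.0 CPM in csld5 and 14.1, 7.34 and 26.7 CPM in complemented libraries. Complemented replicate 2 lay below all csld5 libraries, replicates 1 and 3 lay above them, and replicate 3 came near the lowest col-0 library without reaching it. The log2 fold changes of WRKY33 were -1.53 ± 0.31 in csld5 versus col-0, 0.49 ± 0.32 in complemented versus csld5 and -1.04 ± 0.30 in complemented versus col-0.

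WRKY40 (AT1G80840, chromosome 1, 30383561 to 30385499) encodes a repressor of defence that acts with WRKY18 and WRKY60. It had 9.02, 8.91 and 10.9 CPM in col-0, 1.84, 2.38 and 2.73 CPM in csld5 and 4.41, 1.145 and 7.06 CPM in complemented libraries. The complemented libraries lay on both sides of csld5 and all below col-0, and their highest value was 6.17 times their lowest in CPM and 3.56 times in TPM. WRKY40 had log2 fold changes of -2.05 ± 0.41, 0.87 ± 0.42 and -1.18 ± 0.39 in the same order as above.

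WRKY53 (AT4G23810, chromosome 4, 12392370 to 12393982) encodes a regulator of leaf senescence and defence. It had 14.2, 14.9 and 19.2 CPM in col-0, 3.76, 3.52 and 3.97 CPM in csld5 and 10.2, 6.33 and 17.2 CPM in complemented libraries. This was the gene that came nearest to col-0 in the complemented line: all 3 complemented libraries lay above csld5, and replicate 3 lay within the range of col-0. The log2 fold changes of WRKY53 were -2.10 ± 0.28 in csld5 versus col-0, 1.59 ± 0.28 in complemented versus csld5 and -0.51 ± 0.25 in complemented versus col-0.

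The distance of the WRKY genes from col-0 in the complemented line depended on replicates 2 and 3. Without replicate 3, complemented versus col-0 gave -1.62 for WRKY33, -1.77 for WRKY40 and -0.96 for WRKY53, and the median of the 10 genes was -1.57. Without complemented replicate 2 the values were -0.70, -0.74 and -0.23, and the median was -0.86. The value of WRKY33 in complemented versus csld5 turned from 0.49 to -0.09 without replicate 3.

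CAF1A (AT3G44260, chromosome 3, 15952008 to 15953346) encodes a catalytic subunit of the CCR4-NOT complex, which shortens poly(A) tails, and its transcript is induced by wounding. It had 16.2, 14.7 and 11.7 CPM in col-0, 4.65, 5.50 and 4.75 CPM in csld5 and 4.16, 3.20 and 4.70 CPM in complemented libraries. Both csld5 and complemented libraries lay below col-0, and they overlapped in complemented replicate 3 only. Its means were 14.2 ± 2.30, 4.97 ± 0.464 and 4.02 ± 0.758 CPM (SD, n = 3). CAF1A had log2 fold changes of -1.52 ± 0.16 in csld5 versus col-0, -0.30 ± 0.16 in complemented versus csld5 and -1.82 ± 0.16 in complemented versus col-0.

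The complemented libraries differed from each other for the set as a whole. As the mean over the 10 genes of the log2 deviation from each gene's mean over 9 libraries, the col-0 libraries stood at 0.98, 0.93 and 0.93, the csld5 libraries at -0.63, -0.51 and -0.38, and the complemented libraries at -0.35, -0.99 and 0.02 (replicates 1, 2 and 3). Complemented replicate 2 was thus below every csld5 library, and complemented replicate 3 was above every csld5 library and below every col-0 library. All 10 genes lay below their own genotype mean in complemented replicate 2, and 8 lay above it in replicate 3. Replicate 2 held the lowest complemented value for 9 of the 10, ERF5 being the exception, and replicate 3 the highest for 8. The highest complemented library was 1.26 to 6.17 times the lowest (median 1.97), against 1.13 to 1.61 times in csld5 (median 1.34) and 1.04 to 1.82 times in col-0 (median 1.30). Single values rest on 44 to 1450 reads.

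**Figure D3:**
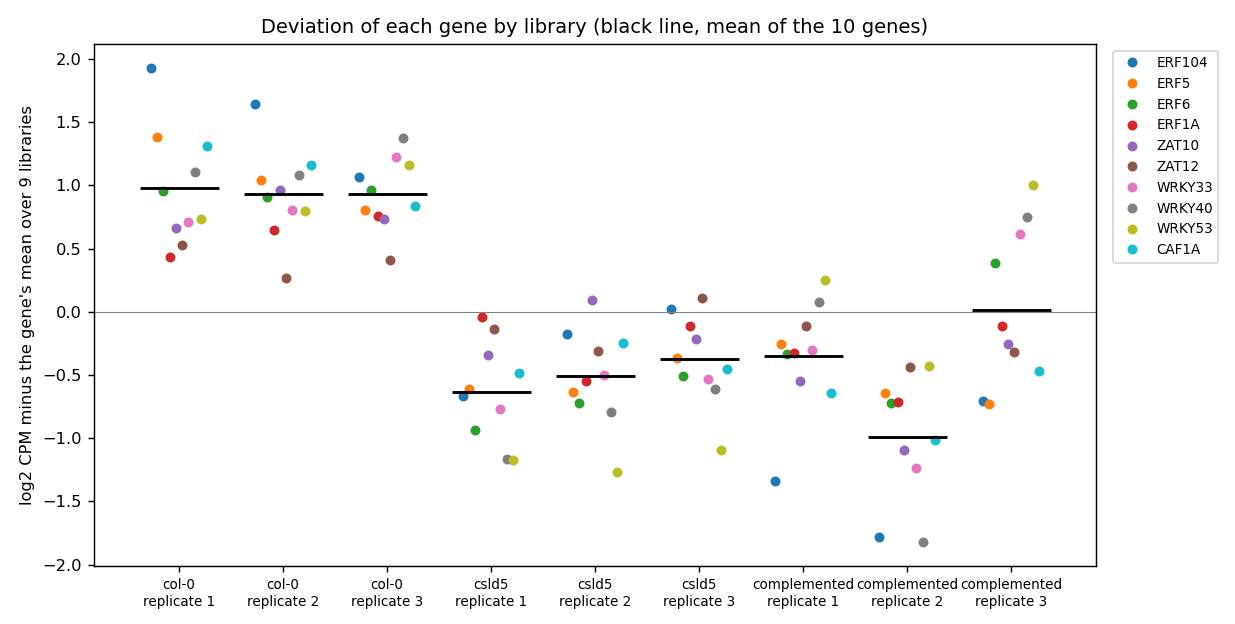
Deviation of each gene from its own mean over 9 libraries (log2 CPM), by library, with a black line at the mean of the 10 genes. The line stands at 0.93 to 0.98 in col-0, and complemented replicates 2 and 3 lie at -0.99 and 0.02.

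On the length-scaled scale of deposited TPM, which allows levels of different genes to be compared, the highest of the 10 in col-0 were WRKY53 (30.5 ± 2.52 TPM, SD, n = 3), ERF104 (28.4 ± 8.15), WRKY33 (25.4 ± 5.01), ERF1A (24.8 ± 2.85) and ERF6 (23.1 ± 0.237). The place of WRKY53 depends on the scale: by CPM per kilobase of exon, a measure added after the values were seen, it came 5 of 10 in col-0 (10.6 ± 1.79), below WRKY33 (16.4 ± 3.22), ERF104 (15.7 ± 4.52), ERF1A (13.6 ± 1.52) and ERF6 (12.8 ± 0.259). CAF1A followed with 19.3 ± 3.17 TPM, and ERF5 (10.8 ± 2.07), ZAT10 (10.01 ± 1.41), WRKY40 (9.97 ± 0.978) and ZAT12 (8.72 ± 0.548) were lower than these. In csld5 ERF1A was the highest on both scales (13.9 ± 2.41 TPM). WRKY53 came 2 of 10 in csld5 by TPM (9.84 ± 0.358) and 8 of 10 by CPM per kilobase. In the complemented line the highest by TPM were WRKY53 (23.3 ± 7.76), ERF1A (12.5 ± 2.56) and WRKY33 (12.5 ± 7.63), and ERF104 was at 4.03 ± 1.58 TPM. By CPM per kilobase WRKY33 (7.91 ± 4.84) came first there, before WRKY53 (7.42 ± 3.64) and ERF1A (6.84 ± 1.42).

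For 7 of the 10 genes, those with 1 exon in the longest transcript, TPM and CPM gave the same relation between genotypes, with the ratio of length-scaled TPM to CPM at a mean of 1.79 to 1.86 in each genotype. The other 3 have gene models that overlap another gene, and since the strand setting is not given, reads may have been counted at either gene. WRKY53 overlaps 3xHMG-box2 (AT4G23800), which was at 190.1 ± 3.40, 169.2 ± 19.3 and 168.8 ± 6.82 CPM in col-0, csld5 and complemented libraries, and the ratio of WRKY53 was 2.89, 3.99 and 3.31. In TPM, csld5 stood at 32.3% and the complemented line at 76.4% of col-0 for WRKY53, against 23.3% and 69.8% in CPM. WRKY40 overlaps AT1G80850 (9.06 ± 1.12, 7.82 ± 0.759 and 9.38 ± 0.242 CPM), and its ratio was 1.38, 1.5 and 1.78. WRKY40 had 2.16 TPM in complemented replicate 2 beside 2.22 TPM in csld5 replicate 1, while in CPM the same libraries had 1.145 and 1.84. WRKY33 overlaps AT2G38480 (5.83 ± 0.695, 5.30 ± 1.2 and 6.42 ± 0.273 CPM) and AT2G08965 (at most 0.0231 CPM), and its ratio was 1.55 to 1.58.

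Exon number went with the gene family: the ERF and ZAT genes and CAF1A had 1 exon, and the WRKY genes had 2 to 5. The share of single-exon genes is thus a description of the families in the list. A single exon was found in 7 of the 10, against 17.29% of 23398 protein-coding genes of the table, and the median exon length was 1332 bases against 1677. The median GC content was 41.33% against 41.12%. The coding sequences of ERF5 and ERF6 were identical at 68.9% of aligned positions, those of ERF104 and ERF5 at 50.8%, those of CAF1A and CAF1b at 79.1% and those of ERF1A and ERF2 at 64.7%.

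Of the 14 tested genes that lie next to the 10 on the chromosome and are not among them, 3 rose and 4 fell in csld5 versus col-0, with a median of 0.003 on the log2 scale, where 21.1% of all tested genes rose and 20.4% fell. Those that rose were CYP71B38, CIPK22 and SBT5.4. CYP71B38, a cytochrome P450 gene 1762 bases from CAF1A, rose by 3.82 ± 0.57 from a low level (0.0446 to 0.337 CPM in col-0, 2.17 to 2.87 CPM in csld5; edgeR quasi-likelihood F test, Benjamini-Hochberg, adjusted p = 0.00016). In complemented versus col-0, 1 of the 14 was called, AT5G61590, which lies 832 bases from ERF104 and was lower by 0.27 ± 0.06 (log2 -0.27, adjusted p = 0.045), a call lost in 10 of 20 alternatives.

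Relatives and pathway genes outside the 10 were drawn from 8 lists, chosen with earlier results of these data known, of which 125 genes were tested. Over all of them 24 rose and 32 fell in csld5 versus col-0 (44.8% called, against 41.5% of all tested genes), and 19 rose and 29 fell in complemented versus csld5 (38.4% against 40.9%). In complemented versus col-0, 0 were higher and 12 were lower (9.60%, against 1.53% of all tested genes, 0.948% higher and 0.578% lower). At an unadjusted p below 0.05 edgeR had 16 higher and 28 lower, DESeq2 called 2 higher and 16 lower, and limma on log2(TPM + 1) called 0 higher and 8 lower. The number called in complemented versus col-0 was 7 without col-0 replicate 1 and 6 without col-0 replicate 2, without complemented replicate 1 or without complemented replicate 2. Without col-0 replicate 3, 5 were higher and 9 lower.

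The lists are small, and their counts in csld5 are read against the 21.1% of all tested genes that rose and the 20.4% that fell. Of 7 tested group IX relatives of the ERF genes, 3 fell and 0 rose in csld5 by edgeR (AT5G61590, AT5G07580 and TDR1, the last with 0 to 0.730 CPM per library and its call lost in 8 of 16 alternatives), or 42.9% lower, with a median of -0.49. DESeq2 had 4 lower and 0 higher, limma 2 and 0, and edgeR at an unadjusted p below 0.05 had 4 and 0. In complemented versus col-0, ERF2, an activator of jasmonate-responsive defence genes, was lower by 0.57 ± 0.11 (log2 -0.57), ERF13 was at -1.27 ± 0.25, and AT5G61590 was the other of the 3 called. None was higher by edgeR, DESeq2 or limma, and 1 was at an unadjusted p below 0.05 in edgeR. The call of ERF2 was lost in 5 alternatives and that of ERF13 in 4, and the 3 calls became 0 to 3 when a library was left out. Against csld5, 4 of the 7 rose (57.1%) and 2 fell (28.6%), where 19.8% of all tested genes rose and 21.1% fell. After the GC and length correction 1 rose and 2 fell. ERF15 rose by 1.57 ± 0.29, and TDR1 (2.66), AT5G61590 (0.31) and AT5G07580 (0.20) rose as well. The calls of TDR1, AT5G61590 and AT5G07580 were lost in 5, 1 and 8 alternatives. ERF13 was at -0.79 ± 0.26, a call lost in 5 of 20 alternatives, and ERF2 was at -0.34, a call also lost in 5. Of 11 zinc finger relatives, 3 rose (27.3%) and 1 fell (9.09%) in csld5. ZAT6 (1.10 ± 0.22), ZF2 (0.88 ± 0.13) and AT2G28200 (0.57 ± 0.11) rose and ZAT11 fell (-1.87 ± 0.53). ZAT11 had 2 to 16 reads per library, and its call was lost in 1 of 17 alternatives, without csld5 replicate 3. In this list limma called 3 higher and 0 lower. In complemented versus csld5, ZAT6 (-0.92 ± 0.22) and ZF2 (-0.57 ± 0.13) fell, and 0 rose (0 by DESeq2 and limma, and 0 at an unadjusted p below 0.05 in edgeR). In complemented versus col-0, 0 of the 11 were called by edgeR, DESeq2 or limma, with 2 higher and 1 lower at an unadjusted p below 0.05 in edgeR.

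WRKY relatives fell in 5 of 18 cases in csld5 (27.8%, against 20.4% of all tested genes) and rose in 0 by edgeR and limma, with a median of -0.13, and DESeq2 called 5 lower and 1 higher, as many as were higher at an unadjusted p below 0.05 in edgeR. WRKY22, which acts downstream of flagellin perception, was at 4.23 to 4.79 CPM in col-0, 1.78 to 2.76 CPM in csld5 and 4.01 to 4.61 CPM in complemented libraries. It fell by 1.10 ± 0.19 in csld5 versus col-0 and rose by 1.02 ± 0.19 in complemented versus csld5 (adjusted p = 0.00048 and 0.00088, edgeR quasi-likelihood F test, Benjamini-Hochberg). WRKY15 took the same course, with -0.89 ± 0.12 and 1.11 ± 0.12. WRKY70, a regulator on the salicylic acid side of defence, was at 138.5 to 150.3 CPM in col-0, 61.9 to 90.4 CPM in csld5 and 58.5 to 96.8 CPM in complemented libraries. Its log2 fold changes were -0.97 ± 0.16 in csld5 and -0.93 ± 0.15 in complemented plants against col-0 (adjusted p = 0.00029 and 0.0074). WRKY54, its closest relative, was at -0.43 ± 0.13 and -0.79 ± 0.13. WRKY18, the partner of WRKY40, fell by 0.80 ± 0.19 in csld5, a call lost after the GC and length correction (-0.51).

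Of 17 genes of the deadenylase complex, 5 were higher (29.4%) and 4 lower (23.5%) in csld5, against 21.1% and 20.4% of all tested genes. In complemented versus col-0, 0 of the 17 were called by edgeR, DESeq2 or limma, and 1 was higher and 0 lower at an unadjusted p below 0.05 in edgeR. CAF1b, the closest relative of CAF1A, had 6.15 to 6.40 CPM in col-0, 3.48 to 4.76 CPM in csld5 and 3.02 to 7.08 CPM in complemented libraries. It fell by 0.65 ± 0.24 in csld5 (adjusted p = 0.043, edgeR quasi-likelihood F test, Benjamini-Hochberg) and is named here after its values were seen. The complex genes that rose with the smallest p were AT3G20800 (0.62 ± 0.07), AT5G12980 (0.55 ± 0.09) and AT1G02080 (0.45 ± 0.10).

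Of 27 other early response regulators, 13 fell (48.1%) and 5 rose (18.5%) in csld5 (median -0.46), against 20.4% and 21.1% of all tested genes. In the other comparisons 3 rose and 3 fell in complemented versus csld5, and 5 were lower and 0 higher in complemented versus col-0 (median -0.30). For the last comparison DESeq2 called 7 lower and 0 higher, limma 2 and 0, and edgeR at an unadjusted p below 0.05 had 13 and 3. ATL2, a ubiquitin ligase gene induced by chitin, had 9.29 to 12.2 CPM in col-0, 6.61 to 7.21 CPM in csld5 and 3.46 to 5.88 CPM in complemented libraries. The 3 genotypes of ATL2 did not overlap, with complemented the lowest. Its log2 fold changes were -0.62 ± 0.17 in csld5 versus col-0, -0.67 ± 0.18 in complemented versus csld5 and -1.29 ± 0.18 in complemented versus col-0 (adjusted p = 0.012, 0.0093 and 0.002, edgeR quasi-likelihood F test, Benjamini-Hochberg). The first of these calls was lost without col-0 replicate 2 (-0.51). MYBR1, also called MYB44, a regulator of responses to abscisic acid, followed the same order, with -0.46 ± 0.12, -0.45 ± 0.12 and -0.91 ± 0.12 (adjusted p = 0.0061, 0.0074 and 0.00099). The first of these calls was lost in limma on TPM (-0.29), and the second after the GC and length correction (-0.13). The other 3 genes lower in complemented versus col-0 were SZF1 (-0.94 ± 0.20), BAP1 (-1.33 ± 0.29) and PUB22 (-2.21 ± 0.47), whose calls were lost in 8, 9 and 7 alternatives, and PUB22 had 4 to 30 reads per library. ERF11, a repressor, took another course: it fell by 2.78 ± 0.35 in csld5 and rose by 2.2 ± 0.35 in complemented versus csld5, from 0.594 to 0.780 CPM in csld5 to 1.87 to 5.13 CPM in complemented libraries.

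**Figure D4:**
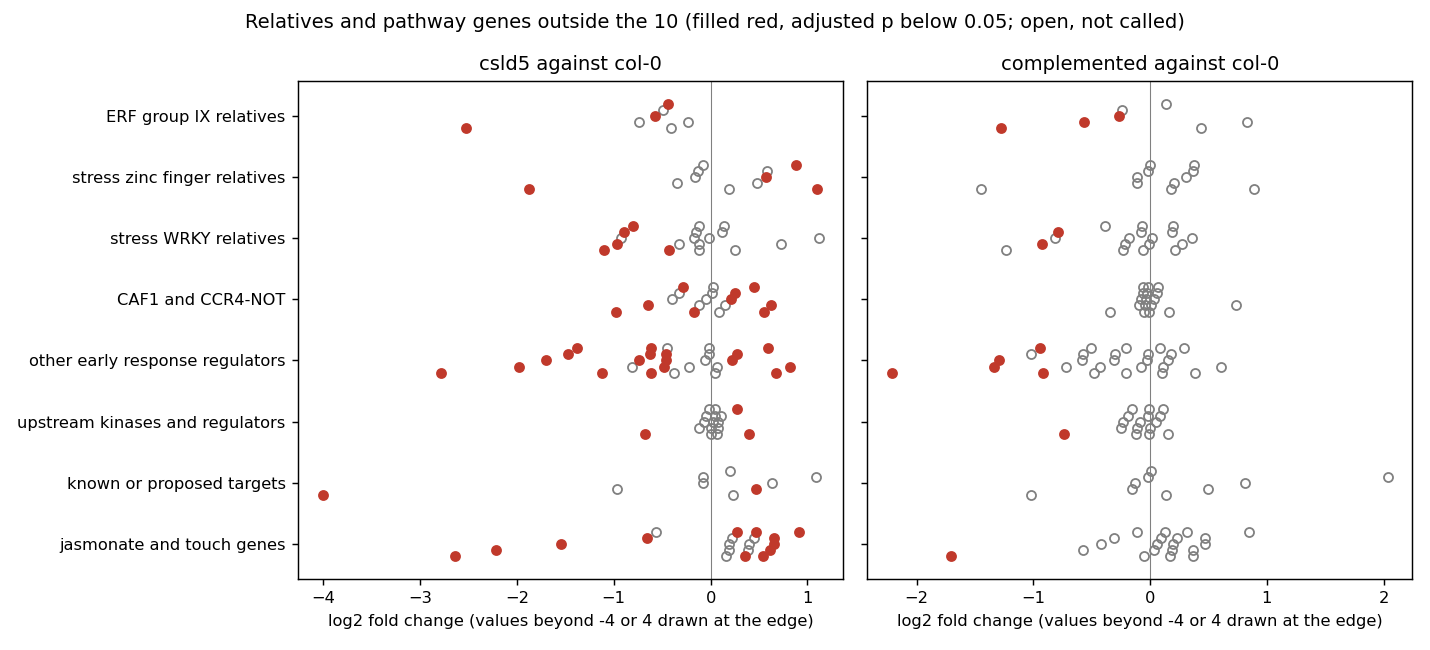
Log2 fold change of each tested relative or pathway gene outside the 10, by list, in csld5 versus col-0 and in complemented versus col-0, with filled red symbols for an adjusted p below 0.05. The 12 filled symbols on the right all lie below 0, while on the left 32 lie below it and 24 above. The symbol at the left edge is PDF1.2, which had 0 reads in csld5.

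Of 16 upstream kinases and regulators, 2 rose (12.5%) and 1 fell (6.25%) in csld5. The gene that fell was MPK3, which encodes the kinase that acts on several ERF and WRKY proteins: it had 56.6 to 70.4 CPM in col-0, 35.9 to 41.1 CPM in csld5 and 43.4 to 87.2 CPM in complemented libraries. Its log2 fold changes were -0.68 ± 0.18 in csld5 versus col-0 and 0.79 ± 0.18 in complemented versus csld5 (adjusted p = 0.009 and 0.0036, edgeR quasi-likelihood F test, Benjamini-Hochberg). MPK6 was at -0.05 ± 0.06 and -0.07 ± 0.06 and was not called. MKK9, a kinase upstream of MPK3 and MPK6, had 21.8 to 23.4 CPM in col-0, 19.9 to 24.6 CPM in csld5 and 13.0 to 14.5 CPM in complemented libraries. The complemented libraries of MKK9 lay below all others, by -0.73 ± 0.09 against col-0 and -0.72 ± 0.09 against csld5 (log2, adjusted p = 0.00041 and 4.4e-05). In all, 7 of the 16 fell and 1 rose in complemented versus csld5, but after the GC and length correction 1 fell and 4 rose. In csld5 versus col-0 that correction left 0 higher and 5 lower, in place of 2 and 1.

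Some genes are known or proposed targets of the 10. Of 9 tested, 1 rose and 1 fell in csld5 (11.1% each), 2 rose and 3 fell in complemented versus csld5, and 0 were called in complemented versus col-0 by edgeR, DESeq2 or limma, with 2 higher and 0 lower at an unadjusted p below 0.05 in edgeR. APX1, the ascorbate peroxidase gene, rose by 0.47 ± 0.06 in csld5 and fell by 0.47 ± 0.06 in complemented versus csld5 (log2 -0.47). PDF1.2, a defensin gene, had 18, 2 and 6 reads in col-0, 0 reads in the 3 csld5 libraries and 46, 10 and 60 reads in complemented libraries.

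Of 20 jasmonate and touch genes, 8 rose (40% of the list) and 4 fell (20%) in csld5, against 21.1% and 20.4% of all tested genes, and 1, which was lower, was called in complemented versus col-0. The number that rose ran from 5 to 12 when a library was left out. The genes that rose belong to jasmonate synthesis and signalling, with LOX2, a lipoxygenase gene, at 0.92 ± 0.09. The 4 that fell are touch genes, TCH4, TCH2, TCH3 and CML38. CML37 and AT1G76640 (CML39) of the same list were not among them. Their means were 0.736 and 0.763 CPM in col-0 and 0.498 and 0.995 CPM in csld5. The call of TCH3 (-0.66) was lost in limma on TPM, with -0.34 on log2(TPM + 1). TCH4, a xyloglucan-modifying enzyme gene, had 33.1 to 42.9 CPM in col-0, 7.35 to 9.10 CPM in csld5 and 7.78 to 17.7 CPM in complemented libraries. It was lower than in col-0 in both, with -2.21 ± 0.23 in csld5 and -1.71 ± 0.22 in complemented plants (adjusted p = 1.2e-05 and 0.0012, edgeR quasi-likelihood F test, Benjamini-Hochberg). TCH2 and CML38, genes of calmodulin-like proteins, fell by 1.54 ± 0.08 and 2.64 ± 0.34 in csld5 and rose by 1.23 ± 0.08 and 2.07 ± 0.35 in complemented versus csld5. Complemented replicate 2 was again the lowest of its group for CML38, with 2.55 CPM against 7.26 and 8.22 CPM.

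Clock genes were counted apart, since several stress regulators are known to follow the time of day. Of 10, 5 rose and 1 fell in csld5, 1 rose and 5 fell in complemented versus csld5, and 1 was lower in complemented versus col-0, which is 60%, 60% and 10% called, against 41.5%, 40.9% and 1.53% of all tested genes. The gene lower in both against col-0 was LHY, a morning gene, with -0.51 ± 0.10 and -0.43 ± 0.10 (adjusted p = 0.001 and 0.043, edgeR quasi-likelihood F test, Benjamini-Hochberg). The second of these calls was lost in 12 of 20 alternatives. GI rose by 0.68 ± 0.08 and PCL1 by 0.47 ± 0.06 in csld5. The part of the time of day in the levels of the 10 genes was not tested.

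Among 18475 other tested genes with an average log2 CPM of at least 1, the 8 whose profile over the 9 libraries was nearest to the mean profile of the 10 were AT1G72920, AT4G29780, AR781, AT1G72910, SZF1, DIC2, ACS6 and MAF5. Likeness was measured as the root mean square distance of log2 deviations, which was 0.13 for AT1G72920 and 0.23 for MAF5, against a median of 0.73 over all genes compared. They were chosen for this likeness, so their levels are a description. ACS6, which encodes an enzyme of ethylene synthesis, had 32.0, 29.8 and 27.6 CPM in col-0, 13.1, 12.8 and 13.3 CPM in csld5 and 13.2, 12.8 and 17.4 CPM in complemented libraries. The csld5 libraries of ACS6 lay close together, and complemented replicate 3 stood above them. SZF1, a zinc finger gene that is also among the early regulators above, had 50.3, 44.4 and 53.4 CPM in col-0, 17.6, 26.3 and 24.3 CPM in csld5 and 23.3, 17.4 and 36.1 CPM in complemented libraries. DIC2, a gene of a mitochondrial carrier, stood at 12.9 to 19.6 CPM, 4.04 to 5.01 CPM and 3.52 to 7.38 CPM in the same order, and MAF5, a MADS-box gene related to FLC, at 26.1 to 31.0, 9.09 to 12.2 and 8.98 to 12.4 CPM. In each of the 8 the col-0 libraries lay above the other 6, and complemented replicate 2 was the lowest complemented library.

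**Figure D5:**
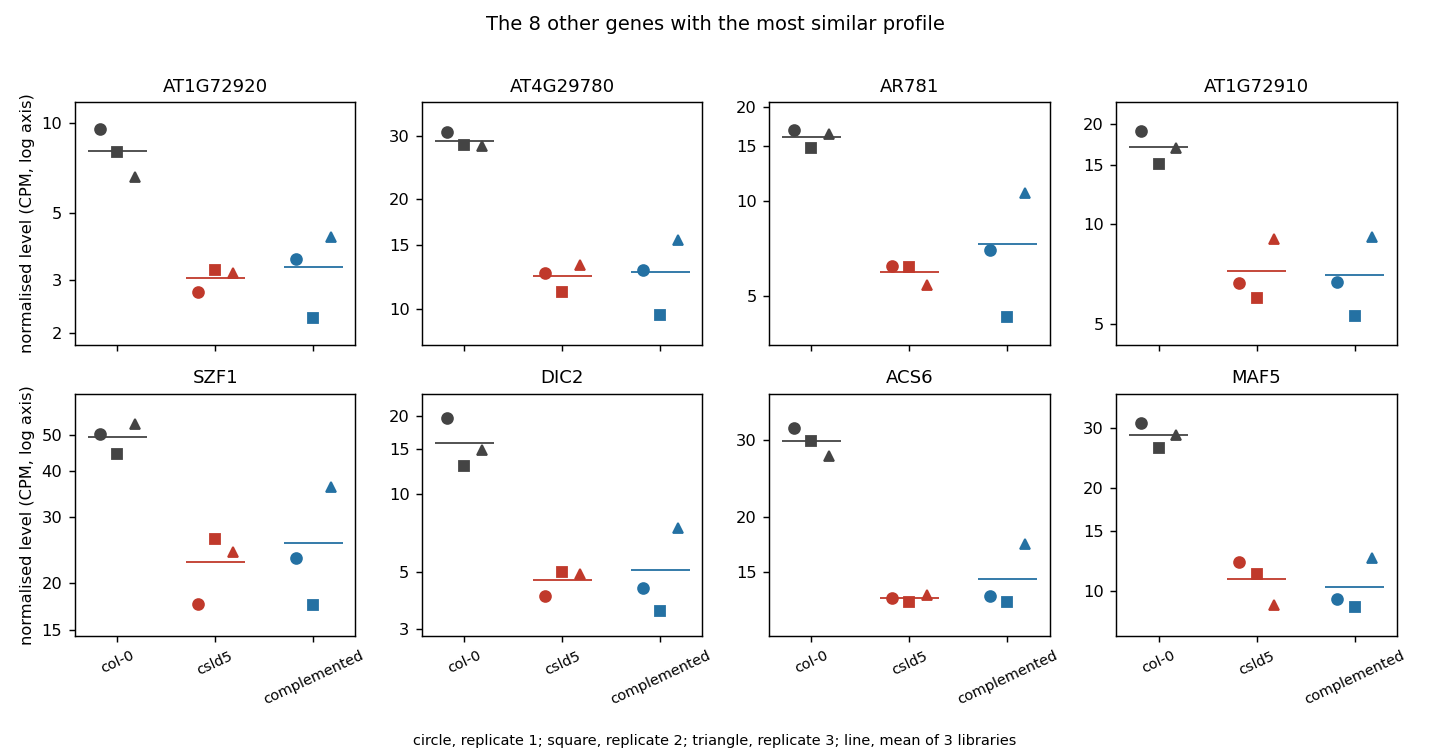
Normalised level (CPM, log axis) of the 8 genes with the most similar profile in each of the 9 libraries, with a symbol for each replicate number and a line at the mean of 3 libraries. In every panel col-0 is highest, and complemented replicate 2 (square) lies at or below the other complemented libraries.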

How the data were processed

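Raw read counts per gene and TPM (length-scaled abundance) were deposited by the authors for 9 libraries. The build TAIR10 and the tools featureCounts 2.0.6, HISAT2 2.2.1 and Trimmomatic 0.39 are listed per the submitters' processing notes. The sources used here do not give their order, their settings, the strand setting, the annotation release or the tool behind TPM. In the count column of col-0 replicate 1, 0 genes have no read, against 932 to 1540 in the others. Of the deposited TPM values 8616 are missing, 643 of them where the count is above 0, and 1783 are given where the count is 0, so counts and TPM differ in which genes are listed as detected. A missing TPM was taken as 0.

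Groups and replicate numbers came from the sample titles. Counts were tested with edgeR 4.0.16 (R 4.3.3): the default expression filter, TMM factors (0.947 to 1.03), 1 quasi-likelihood fit to the 9 libraries on genotype alone, Benjamini-Hochberg adjustment over 22671 genes, adjusted p below 0.05 and no fold minimum. CPM values are TMM-normalised, with a prior count of 2 only on the log scale of profiles. Errors are standard errors for log2 fold changes and standard deviations for levels. The 10 genes and all companion lists were chosen with earlier results of these data known. Named besides them were CSLD5, the tissue markers, up to 4 called genes of each list and comparison with the smallest p, the nearest annotated gene on each side, and the 8 nearest profiles.

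Alternatives were DESeq2 size factors, library totals, no filter, at least 1 CPM in 3 libraries, the DESeq2 1.42.0 test, limma 3.58.1 on log2(TPM + 1) with and without a filter of 1 TPM in 3 libraries and on log2(TPM + 0.1), the replicate number as a block, 2 genotypes per fit, a smooth correction for GC content and length (mgcv 1.9.3), and leaving out each library, 20 in all. CPM per kilobase of exon, and TPM for ranges and shares of the WRKY genes, were added after the values were seen. Replicate pairs within a genotype differed by more than sampling noise (chi-square per degree of freedom 6.05 to 19.5), so each library was counted. Same-numbered libraries of different genotypes correlated at -0.106 to 0.196 in their deviations, so the numbers were not taken as pairs. The edgeR, DESeq2 and limma tests were tried on simulated counts, with a small share of genes changed in csld5 against col-0 only. For limma, scaled counts stood in for TPM. The GC and length correction, the replicate block and the nearest profiles were not tried in this way. Positions, promoters and coding sequences come from the RefSeq annotation of TAIR10.1, and proteins were not analysed here.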

Additional observations from a re-analysis of the deposited data

How the results depend on the processing

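Of 2877 single-gene values under the 20 alternatives, 28 had another sign than reported and 194 calls were lost. Gained calls were counted only for the 8 nearest profiles, where there were 2, and not for the 10 genes. Of the 10, 6 were lower in complemented against col-0, but 7 with DESeq2 and 9 without complemented replicate 3. In complemented against csld5, 2 of the 10 were higher, but 4 without complemented replicate 2. A called value that changed sign was that of AT5G07580 in complemented against csld5, from 0.20 to -0.067 after the GC and length correction; the cause was not tested. Over all genes, 346 were called in complemented against col-0; DESeq2 called 663, limma 211 on log2(TPM + 1), 217 on log2(TPM + 0.1) and 137 without a filter, and leaving out a library gave 139 to 461. In complemented against csld5 the GC and length correction gave 5955 calls in place of 9273. Library totals in place of TMM moved the split in csld5 against col-0 from 4790 higher and 4627 lower to 3524 and 6394, and in complemented against csld5 from 4500 and 4773 to 6422 and 3171. The 12 companion calls in complemented against col-0 became 6 with limma without a filter and 6 to 14 when a library was left out. The median of the 10 genes in complemented against col-0 ran from -1.57 to -0.86 when a library was left out, with 5 to 9 of them called. With the replicate number as a block it was -1.23, with 368 genes and 11 companions called in that comparison, 9540 and 57 in csld5 against col-0, and 9504 and 50 in complemented against csld5. The lowest levels limit single values most: WRKY40 had 44 reads in complemented replicate 2.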
